A study of Mus musculus with 32 samples.

Results

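Early-passage primary mouse embryonic fibroblasts (MEFs) with an Oct-1 mutation and wild type MEFs were profiled with and without irradiation, and the question addressed here is whether the response to irradiation differed between the genotypes. The 4 groups were Oct-1 mutant irradiated, Oct-1 mutant unirradiated, wild type irradiated and wild type unirradiated MEFs, with 4 samples each. RNA was measured on an A and a B array of an Affymetrix mouse expression set, so that 16 samples per array type gave 32 samples, and all 32 of 32 entered the comparison. Sample title numbers pair every array A sample with an array B sample, so the 2 array types do not replicate each other. The labels call the mutant cells Oct-1 mutant and give no allele, embryo, radiation dose or time after irradiation, and no other allele or agent is named for any group. Nothing says whether the 4 samples of a group came from separate embryos or cultures, so p-values measure the spread between these samples, which may be technical.

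Oct-1, encoded by Pou2f1, is a widely expressed POU-domain transcription factor that binds the octamer ATGCAAAT. Ionizing radiation activates p53, which induces the cell cycle inhibitor Cdkn1a and the ubiquitin ligase Mdm2 that in turn degrades p53, and genes for mitosis are repressed as cells arrest. Oct-1 sites in the promoter of the damage-induced gene Gadd45a are known for mediating induction that does not need p53, and cells lacking Oct-1 are known for their sensitivity to oxidative and genotoxic stress. Probe sets for Pou2f1 and for Trp53, which encodes p53, were not analysed here, so the mutation itself was not checked at the RNA level.

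The quantity reported throughout is the difference of irradiation effects, the change with irradiation in Oct-1 mutant MEFs minus that in wild type MEFs, on the log2 scale of the probe set values. A positive difference means that the change was more positive in the mutant. The difference was estimated for each probe set with limma, a linear model with moderated variances, over the 4 groups with the run of title numbers (the lower numbers for replicates 1 and 2, the higher ones for 3 and 4) as a block. Probe sets were called irradiation-responsive when the effect averaged over both genotypes passed an adjusted p of 0.05 (Benjamini-Hochberg), a choice that does not use the difference between genotypes. It cannot pick a probe set that moved in opposite directions by equal amounts in the 2 genotypes. The tests of the average and of the difference share the variance estimate of a probe set. At a given effect, the choice thus favours probe sets with a lower estimated spread and narrower intervals.

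The medians of the A arrays were 6.16 to 6.28 and those of the B arrays 3.67 to 3.78, and replicates of a group correlated at 0.985 or more. All 20 fibroblast markers on array A passed the filter on low values, with a median level of 12.7, and their summed level was 17.2 to 17.6 in irradiated mutant, 17.2 to 17.6 in unirradiated mutant, 17.1 to 17.3 in irradiated wild type and 17.1 to 17.4 in unirradiated wild type samples. Of the markers of other cell types on array A, 3 of 11 for macrophages and blood, 3 of 10 for epithelium, 2 of 9 for endothelium and pericytes, 4 of 10 for neurons and glia and 1 of 8 for skeletal muscle passed it. On this array the summed level of the neural and glial markers was lower in mutant than in wild type samples, 9.23 to 9.56 against 9.62 and more, and the part of this in the results was not tested. The difference of irradiation effects in the summed level of these 5 lists lay between -0.036 for endothelium and pericytes and 0.10 for macrophages and blood. Signal of 3' against 5' probe sets, a sign of RNA quality, gave a difference of irradiation effects of 0.085 ± 0.12 for Gapdh and -0.026 ± 0.066 for b-Actin on array A (SD over the 4 replicate numbers).

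No probe set passed an adjusted p of 0.05 for a different response in the mutant. The limma test called 0 of 13582 probe sets on array A (0%) and 0 of 13502 on array B (0%), with smallest adjusted p-values of 0.657 for Ptprv and 0.757 for Ddx58. At an unadjusted p under 0.05 there were 388 on array A (2.86%) and 397 on array B (2.94%). Among responsive probe sets these were 129 of 3391 on array A (3.8%), of which 79 had the larger response in the mutant, and 43 of 594 on array B (7.24%), of which 19 did. The average irradiation effect by which they were chosen passed in 3391 probe sets on array A (25%), of which 1899 rose (14%) and 1492 fell (11%). On array B it passed in 594 (4.4%), of which 433 rose (3.21%) and 161 fell (1.19%). At the edge of this choice, Usp45 was the last probe set inside on array A, with an average effect of 0.15 and a difference of -0.18, and Mrpl49 the first outside, with 0.23 and -0.029. On array B the last inside was Ttc19, with an average effect of 0.17 and a difference of 0.030, and the first outside Copg1, with 0.17 and -0.028.

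The width of the intervals says how precisely the difference of a single probe set was estimated. It is not the size of difference that would pass after adjustment, which can be larger. Ptprv, with a difference of 1.24 (0.75 to 1.73), was not called, at an adjusted p of 0.657 by limma. For responsive probe sets the 95% interval of the difference extended a median of 0.26 (0.12 to 0.94) to either side for array A and 0.33 (0.11 to 1.07) for array B. The whole interval lay within 1 log2 unit of 0 for 3367 of 3391 responsive probe sets on array A (99.3%) and for 577 of 594 on array B (97.1%). It lay within 0.5 of 0 for 2750 on array A (81.1%) and 358 on array B (60.3%). Most responses were themselves small, with a median average effect of 0.26 in either direction on array A and 0.41 on array B. For the median responsive probe set on array A the far end of the interval reached 136% of the average effect, so a small response could differ by its own size between the genotypes without being detectable here. These intervals hold for 1 probe set at a time and not for all at once.

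Responses of at least 2-fold had wider intervals, with a median half-width of 0.41 on array A and 0.52 on array B, but narrower ones relative to their size. They comprised 93 probe sets on array A (62 rises and 31 falls) and 46 on array B (36 rises and 10 falls). In 58 of the 93 (62.4%, 38 rises and 20 falls) and in 19 of the 46 (41.3%, 13 rises and 6 falls), the whole 95% interval of the difference lay within 50% of the average effect. With the average effect held at its estimate, this bound corresponds to mutant responses of 0.6 to 1.67 times the wild type response (log2). The error of the average effect is not in that range, and no interval was made for the ratio. In 33 more on array A and 24 on array B the interval reached past 50% but not 100% of the effect, and in 2 and 3 it reached 100%. Pairing samples by replicate number gave 8 irradiated-to-unirradiated changes, 4 in the mutant and 4 in wild type. All 8 had the sign of the average in 92 of the 93 on array A and in 45 of the 46 on array B. With run means removed, same-numbered samples correlated at a median of -0.00067 on array A and 0.037 on array B. Counts over the replicate numbers, here and below, are therefore a description. The interval included 0 in 84 of 93 on array A and in 42 of 46 on array B.

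**Figure D1:**
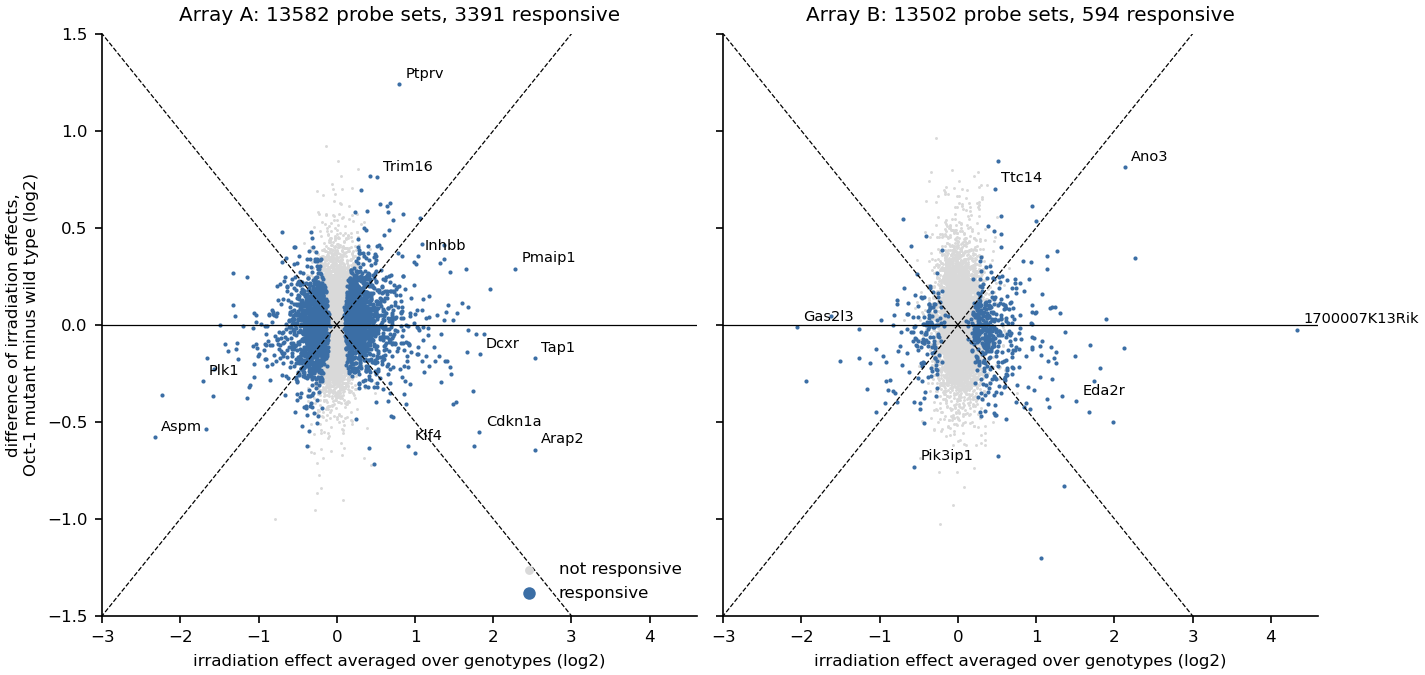
Difference of irradiation effects (Oct-1 mutant minus wild type, log2) against the irradiation effect averaged over both genotypes (log2), 1 point per probe set, array A left and array B right. Blue points are responsive, grey points are not, and dashed lines mark differences of 50% of the average effect. The largest average effect is that of 1700007K13Rik on array B, 4.33 with a difference of -0.025, and the largest difference that of Ptprv on array A, 1.24.

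Over all responsive probe sets, the median response of the mutant differed from that of wild type by less than the spread of the replicate numbers. After turning every difference to the direction of its response, so that a positive value means a larger response in the mutant, the median over responsive probe sets was 0.014 on array A and -0.012 on array B, against 0.0090 and 0.015 over all probe sets. Per replicate number 1 to 4 the array A median was -0.0059, 0.057, -0.0086 and 0.024, and the SD over the 4 numbers was 0.031. On array B the SD was 0.064. Among responses of at least 2-fold, the turned median was -0.026 for rises and 0.12 for falls on array A, and -0.13 for rises and 0.18 for falls on array B. For rises and falls together it was 0.024 on array A and -0.065 on array B. The SD over the replicate numbers was then 0.082 and 0.18, and it was not computed for rises and falls apart.

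The strongest induced genes on array A rose in both genotypes, and 9 of the 10 had intervals of the difference that included 0. Tap1, the peptide transporter of antigen processing and a p53 target in human cells, rose by 2.45 in the mutant and 2.62 in wild type, a difference of -0.17 (95% interval -0.69 to 0.35). Pmaip1, which encodes the pro-apoptotic protein Noxa, rose by 2.43 and 2.14, a difference of 0.29 (-0.29 to 0.87). Dcxr, a carbonyl reductase, rose by 1.75 in the mutant and 1.90 in wild type, and its difference of -0.15 had 1 of the narrowest intervals relative to the effect (-0.37 to 0.067). Dapk1, the death-associated protein kinase, rose by 1.86 and 1.90, a difference of -0.047 (-0.41 to 0.32). Its other probe set gave 0.0655 with a wider interval (-0.654 to 0.785). Hpcal1, a calcium sensor, was bounded most tightly of the array A responses of at least 2-fold, with a rise of 1.16 in the mutant and 1.13 in wild type and an interval from -0.15 to 0.22. Arap2, a GTPase-activating protein for Arf, was less certain: its difference of -0.64 had an interval from -1.40 to 0.11. That difference was -1.23 in the first run of title numbers and -0.061 in the second. Array B probe sets of Arap2, not responsive on average, gave 0.294 (-0.499 to 1.09) and 0.0437 (-0.142 to 0.229). The unirradiated wild type samples of Tap1 and Arap2, and 2 of 4 unirradiated mutant samples of each, lay below the filter mark of 4.96. That mark is a percentile of all probe sets and not a limit of detection, but the size of a rise from such a level is uncertain. Notch3, Dcaf4 and Tmem19 had differences of 0.18, -0.046 and 0.090, with intervals that included 0, and so did Ddit4l, an inhibitor of mTOR signalling, with -0.62 (-1.36 to 0.12) and with -0.34 (-0.92 to 0.24) at another probe set.

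On array B the largest rise was that of 1700007K13Rik, by 4.32 in the mutant and 4.35 in wild type. Its difference of -0.025 (-0.63 to 0.58) reached at most 14.6% of the effect. Its unirradiated wild type mean of 3.36 lay at the filter mark of array B, so the rise is taken from a faint level. Zfp365, a zinc finger gene whose human counterpart is a p53 target, rose by 1.91 in the mutant and 1.88 in wild type at 1 probe set, a difference of 0.031 (-0.37 to 0.43). Its other probe set, with the larger average effect of 2.26, gave 0.34 with a wide interval (-0.56 to 1.24). Ptpn14, a tyrosine phosphatase, rose by 1.35 and 1.39, a difference of -0.037 (-0.34 to 0.27). Its array A probe sets gave -0.22 (-0.70 to 0.26) and 0.27 (-0.085 to 0.62). Ano3, a member of the anoctamin membrane protein family, rose by 2.54 in the mutant and 1.73 in wild type, and its difference of 0.81 (0.15 to 1.48) was 0.12 in the first run and 1.5 in the second, from unirradiated means of 3.61 in the mutant and 3.43 in wild type near the mark of 3.36. A further Ano3 probe set gave 0.10 (-0.38 to 0.58). A pair of probe sets of at least 2-fold, named here after their values were seen, had the most negative differences among these 46, Kcnj15 at -1.20 (-2.21 to -0.20) and Dennd2c at -0.83 (-1.62 to -0.036), both with an adjusted p of 0.994 by limma, and Kcnj15 had a mean level of 3.42, next to the filter mark of 3.36.

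**Figure D2:**
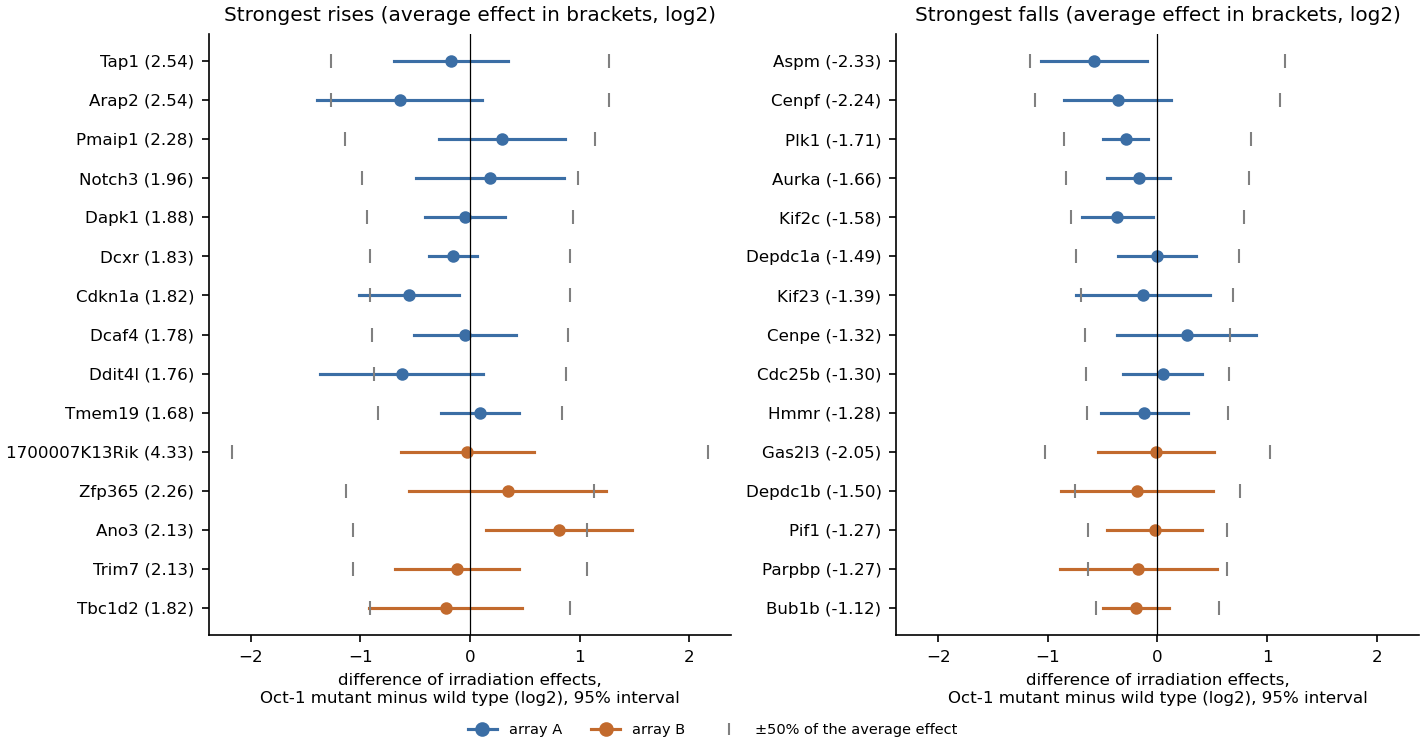
Difference of irradiation effects (Oct-1 mutant minus wild type, log2) of the strongest rises (left) and falls (right) with 95% intervals, array A in blue and array B in orange; the average effect (log2) stands beside each name and grey ticks mark 50% of it. The intervals of Cdkn1a, Aspm, Plk1, Kif2c and Ano3 leave out 0, with differences of -0.55, -0.58, -0.29, -0.37 and 0.81, and the others include it.

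Cdkn1a and Mdm2 show how the genotypes compared at the core of the p53 response. At 1 of its 2 probe sets, Cdkn1a had values of 8.35, 8.27, 7.92 and 7.91 in irradiated mutant MEFs and 6.30, 6.31, 6.73 and 6.91 in unirradiated mutant MEFs. In wild type MEFs it had 8.12, 7.99, 7.96 and 7.93 with irradiation and 5.59, 5.70, 6.14 and 6.16 without. The irradiated groups overlapped, and the unirradiated mutant samples all lay above the unirradiated wild type samples. The rise was therefore 1.55 in the mutant and 2.10 in wild type, a difference of -0.55 (-1.01 to -0.097), negative in all 4 replicate numbers and with an adjusted p of 1 by limma.

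The other Cdkn1a probe set had 12.43, 12.74, 12.63 and 12.55 in irradiated mutant and 11.02, 11.16, 11.51 and 11.73 in unirradiated mutant MEFs, against 12.49, 12.38, 12.42 and 12.44 in irradiated wild type and 10.74, 10.72, 11.26 and 11.44 in unirradiated wild type MEFs. Its difference had the same sign in all 4 numbers and was smaller, -0.16 (-0.51 to 0.20). Both Mdm2 probe sets gave intervals that included 0, -0.14 (-0.55 to 0.27) and -0.21 (-0.66 to 0.23). The first of these had 12.19, 12.02, 11.05 and 11.12 in irradiated mutant and 10.25, 10.09, 9.78 and 9.85 in unirradiated mutant MEFs, against 12.30, 12.25, 11.21 and 11.01 in irradiated wild type and 10.16, 10.13, 9.77 and 9.76 in unirradiated wild type MEFs. The genotypes overlapped in both states, and the 2 runs of title numbers stood further apart than the genotypes.

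**Figure D3:**
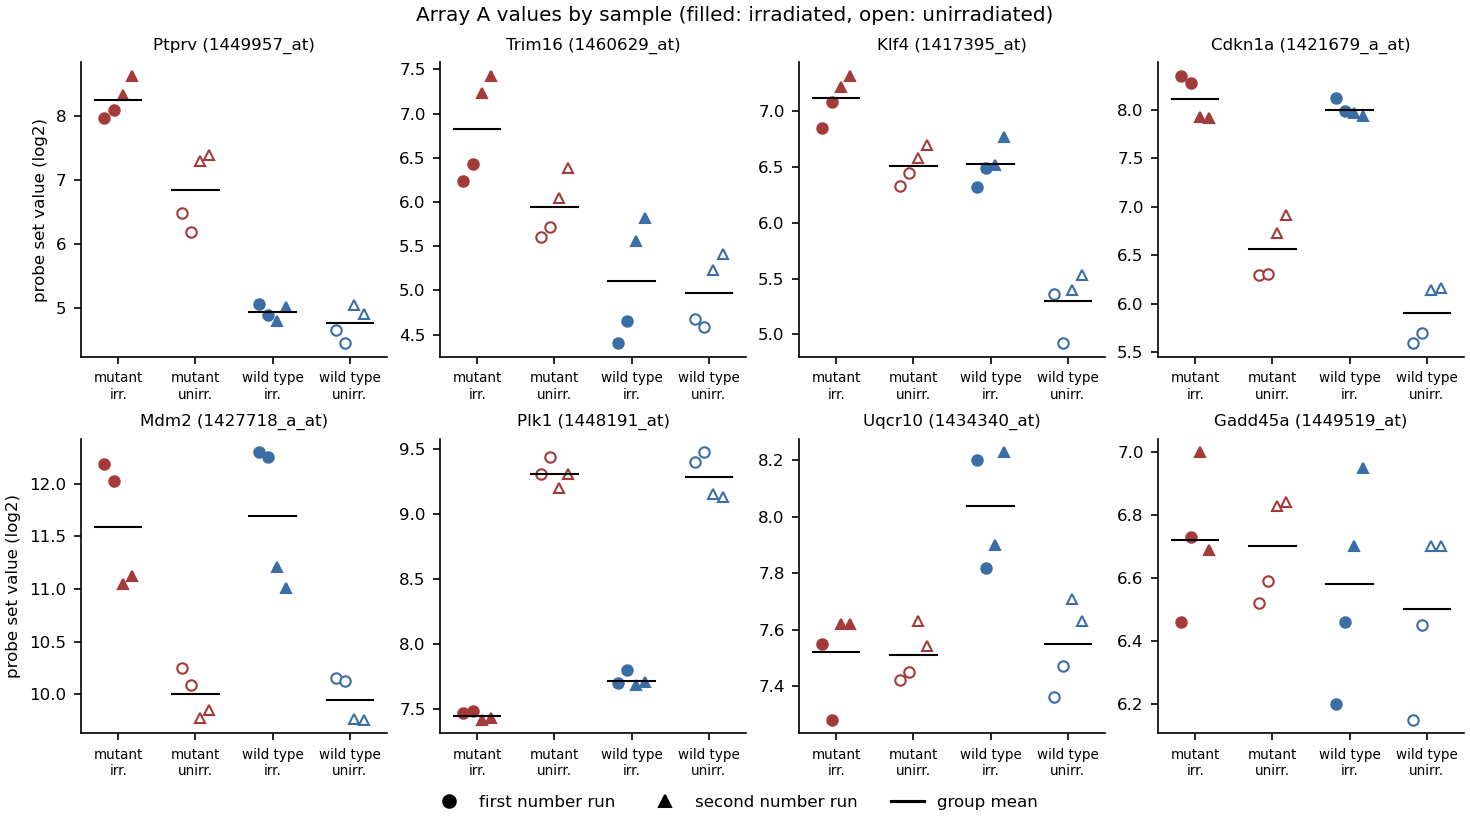
Array A values (log2) of 8 probe sets in every sample, with Oct-1 mutant groups in red and wild type groups in blue, irradiated groups filled and unirradiated groups open; circles are the first and triangles the second run of title numbers, and lines are group means. The irradiated mutant samples of Ptprv lie at 7.97 to 8.64, against 4.79 to 5.06 in irradiated wild type, and those of Plk1 at 7.42 to 7.49, against 7.69 to 7.80 in irradiated wild type.

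The p53 target list had 41 measured genes on array A, of which 36 rose with irradiation and 5 missed the threshold. Of all measured genes on this array, 1232 of 7827 rose. Their differences had a median of -0.059, against -0.00085 over 7827 measured genes, and 29 of 41 were negative, against 3941 of 7827. The median was -0.045, -0.055, 0.020 and -0.11 in replicate numbers 1 to 4, and it was negative, between -0.11 and -0.035, in all 28 analyses, other settings, other scalings and left-out samples included. Other blocks and no variance trend cannot change this median in the balanced design. An unadjusted p under 0.05 was reached by 4 of 41, against 223 of 7827 measured genes, 2 in each direction with Ptprv among the positive ones, and none passed after adjustment. On array B 7 of 11 measured targets rose, against 308 of 6767 measured genes. Negative differences were found in 9 of 11, against 3131 of 6767. The median difference of the targets was -0.12, against 0.0095 over all measured genes. In replicate numbers 1 to 4 that median was 0.054, -0.20, 0.011 and 0.051, and it lay between -0.19 and -0.030 with a sample left out. Eda2r, a receptor of the tumour necrosis factor family, rose by 1.32 in the mutant and 1.71 in wild type, a difference of -0.40 (-0.91 to 0.12), which was -0.77 in the first run and -0.020 in the second. Trim7 and Cdc42bpg had -0.12 (-0.69 to 0.45) and -0.16 (-0.83 to 0.51). The direction of the array B median turned in 1 of 28 analyses, to 0.025 within the second run.

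Mitotic genes fell in both genotypes. The G2/M and mitosis list had 54 measured genes on array A, of which 50 fell, 1 rose and 3 missed the threshold. Of all measured genes on this array, 866 of 7827 fell. The median difference of the list was -0.12, which means a larger fall in the mutant, with 40 of 54 negative, against 3941 of 7827. It was -0.029, -0.066, -0.14 and -0.16 in replicate numbers 1 to 4, and it stayed between -0.15 and -0.071 in all 28 analyses. As for the p53 targets, other blocks and no variance trend cannot change this median. An unadjusted p under 0.05 was reached by 7 of 54, against 2.86% of all probe sets, and 1 of the 7 was positive; none passed after adjustment. Mutant minus wild type, the median of the list was -0.15 with irradiation and -0.073 without. On array B 17 of 26 measured members fell, against 125 of 6767 measured genes. There 14 of 26 differences were negative, against 3131 of 6767. The list median was -0.012, and its sign turned in 4 of 28 analyses. In these bulk samples fewer cells in a cell cycle phase and less RNA per cell cannot be told apart.

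Of the strongest falls whose interval left out 0, Plk1, the mitotic kinase polo-like kinase 1, had the narrowest interval. Its values were 7.47, 7.49, 7.42 and 7.43 in irradiated mutant and 9.31, 9.44, 9.20 and 9.31 in unirradiated mutant MEFs. In wild type they were 7.70, 7.80, 7.69 and 7.71 with irradiation and 9.40, 9.48, 9.16 and 9.13 without. The irradiated groups did not overlap and the unirradiated groups did. The fall was 1.86 in the mutant and 1.57 in wild type, a difference of -0.29 (-0.50 to -0.083) that was negative in all 4 numbers and had an adjusted p of 1 by limma. Aspm, a spindle pole protein, fell by 2.61 in the mutant and 2.04 in wild type, a difference of -0.58 (-1.06 to -0.097), and Kif2c, a kinesin that depolymerises microtubules, had -0.37 (-0.69 to -0.038). Other probe sets of Kif2c gave -0.23 and -0.32 with intervals that included 0, and the array B probe sets of Aspm above the filter gave 0.12 and 0.18.

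The other 5 of the 7 mitotic genes on array A at an unadjusted p under 0.05, named after their values were seen, were Foxm1, a transcription factor of mitotic genes, with -0.45 (-0.80 to -0.10), Cdc20, which switches on the ubiquitin ligase of anaphase, with -0.28 (-0.49 to -0.078), Top2a, Ube2c and Pttg1. Top2a, the DNA topoisomerase, had -0.20 (-0.39 to -0.011) and Ube2c, a ubiquitin-conjugating enzyme of mitotic exit, -0.19 (-0.37 to -0.0078). Pttg1, the securin, was the positive one, with 0.16 (0.00022 to 0.31) and no average response. Several of the strongest falls had intervals that included 0. Aurka, the kinase of spindle assembly, had -0.17 (-0.46 to 0.12) and Cenpf, a kinetochore protein, -0.36 (-0.85 to 0.12), which was -0.017 in the first run and -0.71 in the second. Depdc1a fell by 1.49 in both genotypes and had an interval from -0.36 to 0.36. Cenpe, a kinetochore motor, had 0.27 (-0.37 to 0.90) on array A and -0.29 (-0.59 to 0.0028) at its array B probe set. Gas2l3, a linker of the cytoskeleton needed for cytokinesis, fell by 2.06 in the mutant and 2.05 in wild type on array B, a difference of -0.010 (-0.54 to 0.52).

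**Figure D4:**
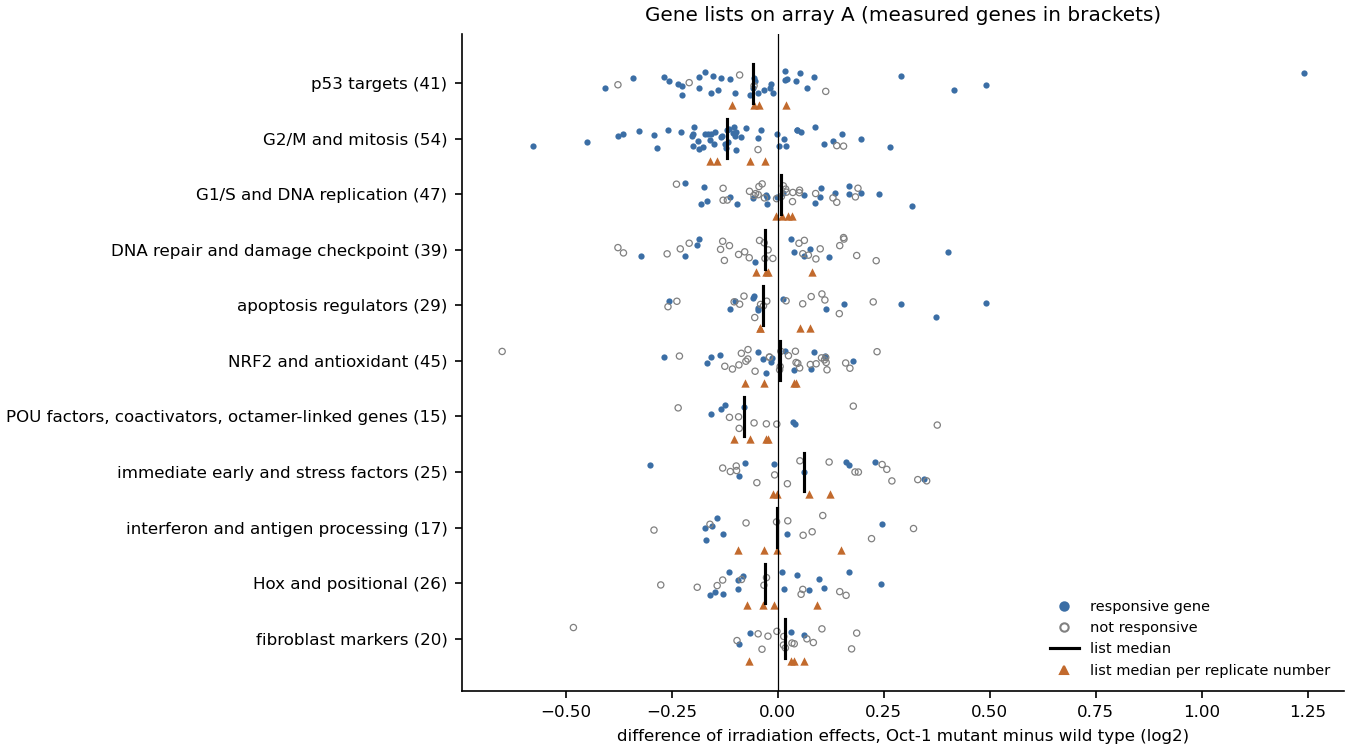
Difference of irradiation effects (Oct-1 mutant minus wild type, log2) for the measured genes of each list on array A, 1 point per gene at its probe set with the highest mean, filled where responsive; bars are list medians and orange triangles list medians per replicate number. The 54 genes for G2/M and mitosis have a median of -0.12 with the 4 triangles below 0, and the 47 genes for G1/S and DNA replication have a median of 0.0084.

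The other lists had medians closer to that of all genes or fewer members. On array A, 22 of the 47 measured genes for G1/S and DNA replication rose, against 1232 of 7827 measured genes, and 25 missed the threshold. Their median difference was 0.0084, and none reached an unadjusted p under 0.05. Among 39 genes for DNA repair and the damage checkpoint the median was -0.030. Msh6, a mismatch repair protein, rose by 1.13 in the mutant and 1.05 in wild type, and Ercc5, a nuclease of nucleotide excision repair, by 1.14 and 1.20, with differences of 0.076 (-0.21 to 0.36) and -0.053 (-0.41 to 0.31). Chek2, the checkpoint kinase, rose by 0.23 in the mutant and 0.56 in wild type, a difference of -0.32 (-0.62 to -0.025) that was negative in all 4 numbers. The median was -0.034 for 29 apoptosis regulators, 0.0055 for 45 NRF2-linked and antioxidant genes, 0.062 for 25 immediate early and stress factors and -0.0030 for 17 genes of interferon and antigen processing. In the antioxidant list Hmox1, the heme oxygenase, had 0.086 (-0.25 to 0.42) and Gss, the glutathione synthetase, 0.037 (-0.29 to 0.36). The array B probe set of Gss, also responsive, gave 0.355 (-0.371 to 1.08). Of 26 Hox and other positional genes 15 fell, against 866 of 7827 measured genes, with a median difference of -0.030, and Hoxa10 fell by 1.06 in the mutant and 0.92 in wild type. The 20 fibroblast markers had a median of 0.016, whose sign turned in 6 of 28 analyses.

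The probe sets with the smallest p-values for the difference among responsive probe sets are listed as leading candidates and were chosen by the difference itself, so their values are a description. On array A the first was Ptprv, a receptor-type tyrosine phosphatase known in mouse cells as a p53 target. It had 7.97, 8.10, 8.33 and 8.64 in irradiated mutant and 6.49, 6.19, 7.30 and 7.39 in unirradiated mutant MEFs. In wild type it had 5.06, 4.89, 4.79 and 5.01 with irradiation and 4.65, 4.44, 5.04 and 4.90 without. All mutant samples lay above all wild type samples, and the wild type samples lay about the filter mark of 4.96, among the faintest probe sets kept. The change was 1.42 in the mutant and 0.18 in wild type, an estimated difference of 1.24 (0.75 to 1.73). Since 5 of the 8 wild type samples lay below that mark and the probe set passed the filter through its mutant levels, the size of the wild type change, and with it of the difference, is uncertain. The difference was 1.07, 1.47, 1.28 and 1.14 in the 4 numbers and 1.09 to 1.37 with a sample left out. The adjusted p was 0.657 by limma and 0.189 at the lowest in any analysis.

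Trim16, a ubiquitin ligase of the tripartite motif family, came second among positive differences. It had 6.24, 6.43, 7.23 and 7.43 in irradiated mutant and 5.6, 5.72, 6.05 and 6.38 in unirradiated mutant MEFs, against 4.4, 4.65, 5.56 and 5.82 in irradiated wild type and 4.68, 4.59, 5.23 and 5.41 in unirradiated wild type MEFs. It was higher with irradiation in all 4 numbers in the mutant and in 3 of 4 in wild type, with a difference of 0.76 (0.37 to 1.15), but a further Trim16 probe set gave -0.088 (-0.36 to 0.18). Zfp704, a zinc finger gene, had 6.58, 6.36, 6.92 and 6.80 in irradiated mutant and 6.66, 6.72, 6.83 and 6.82 in unirradiated mutant MEFs, against 5.93, 6.17, 6.38 and 6.51 in irradiated wild type and 6.65, 6.67, 6.93 and 7.02 in unirradiated wild type MEFs. It was lower after irradiation in all 4 wild type numbers, and its difference of 0.48 (0.21 to 0.75) was 0.0082 (-0.34 to 0.36) at its other probe set. Parp9, an ADP-ribosyltransferase family member, had a difference of 0.58 (0.24 to 0.93), and Inhbb, the beta B subunit of inhibins and activins, rose by 1.21 in the mutant and 0.86 in wild type (0.35, 0.14 to 0.56).

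Among negative differences Klf4, a zinc finger factor induced by DNA damage, came first. It had 6.85, 7.08, 7.22 and 7.32 in irradiated mutant and 6.33, 6.45, 6.58 and 6.70 in unirradiated mutant MEFs, against 6.32, 6.49, 6.52 and 6.77 in irradiated wild type and 5.36, 4.92, 5.40 and 5.53 in unirradiated wild type MEFs. The mutant samples lay above the wild type samples in each state, and the gap narrowed with irradiation, as for Cdkn1a. Klf4 rose by 0.60 in the mutant and 1.23 in wild type, a difference of -0.62 (-0.93 to -0.32), and its other probe set gave -0.30 (-0.59 to -0.016) with the same sign in all 4 numbers. The adjusted p was 0.998 or more by limma for both in every analysis. Sesn2, a stress-induced sestrin and p53 target, had -0.47 (-0.79 to -0.15) and, at its other probe set, -0.27 (-0.68 to 0.14).

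Uqcr10, a subunit of respiratory complex III, had 7.55, 7.28, 7.62 and 7.62 in irradiated mutant and 7.42, 7.45, 7.63 and 7.54 in unirradiated mutant MEFs, against 8.20, 7.82, 7.90 and 8.23 in irradiated wild type and 7.36, 7.47, 7.71 and 7.63 in unirradiated wild type MEFs. All 4 irradiated wild type samples lay above the other 12, but the other Uqcr10 probe sets gave -0.20 (-0.41 to 0.013) and -0.0049 (-0.22 to 0.21), against -0.49 here. Prpf39, a splicing factor, had 6.97, 7.32, 6.73 and 6.92 in irradiated mutant and 7.57, 7.61, 7.49 and 7.32 in unirradiated mutant MEFs, against 7.36, 7.57, 7.08 and 7.27 in irradiated wild type and 7.40, 7.54, 7.36 and 6.99 in unirradiated wild type MEFs. It was lower with irradiation in all 4 mutant numbers, by -0.51 on average, while the wild type groups overlapped, and further probe sets gave 0.24 (-0.091 to 0.57) and -0.17 (-0.59 to 0.26). Frrs1, a ferric reductase, had -0.72 (-1.21 to -0.23), of which -1.12 in the first run and -0.31 in the second.

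On array B the leading candidates were Cenpa, Ttc14 and Rdh10 with positive differences of 0.38 (0.17 to 0.59), 0.70 (0.22 to 1.18) and 0.46 (0.12 to 0.80). Negative ones were Pik3ip1, Ccdc82 and Commd8, with -0.73 (-1.19 to -0.27), -0.37 (-0.61 to -0.13) and -0.47 (-0.79 to -0.15). Cenpa, the centromeric histone variant, was measured at a mean of 3.47, close to the filter mark of 3.36, and its array A probe set gave 0.20 (-0.058 to 0.45). Pik3ip1, an inhibitor of phosphoinositide 3-kinase, gave 0.46 (-0.31 to 1.22) at another probe set. The 9 further Ttc14 probe sets included 8 above the filter, all with intervals that included 0. Further probe sets of Ccdc82 had the opposite sign, 0.27 (-0.34 to 0.88) and 0.0615 (-0.17 to 0.29). Those of Commd8 and Rdh10 kept the sign, but their intervals included 0: -0.16 (-0.48 to 0.17) and 0.16 (-0.17 to 0.49).

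A pair of array B probe sets that were not responsive on average had opposite changes in the 2 genotypes and are named after their values were seen. Ddx58, which encodes the RNA sensor RIG-I, had 5.15, 5.35, 5.28 and 5.28 in irradiated mutant and 5.55, 5.49, 5.70 and 5.54 in unirradiated mutant MEFs, against 5.20, 5.20, 5.17 and 5.24 in irradiated wild type and 4.84, 4.97, 5.04 and 5.12 in unirradiated wild type MEFs. Neither pair of groups within a genotype overlapped. Its difference was -0.51 (-0.71 to -0.32, adjusted p 0.757 by limma), and a further Ddx58 probe set gave -0.26 (-0.51 to -0.00096).

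The other was Mapk8, which encodes the stress kinase JNK1, with 5.03, 5.04, 5.02 and 4.97 in irradiated mutant and 4.73, 4.79, 4.78 and 4.68 in unirradiated mutant MEFs, against 5.01, 6.05, 5.21 and 5.04 in irradiated wild type and 5.63, 5.69, 5.5 and 5.83 in unirradiated wild type MEFs. Wild type irradiated replicate 2, at 6.05, was the highest of the 4 irradiated wild type samples. The difference was 0.60 (0.097 to 1.11, adjusted p 0.994) over all samples and 0.85 (0.62 to 1.08, adjusted p 0.0299 by limma) without that sample, the only call for a difference in any analysis of either array. Array A probe sets of Mapk8 gave 0.20 (-0.099 to 0.50) and 0.22 (-0.45 to 0.88), and the other array B probe set gave -0.19 (-0.44 to 0.061).

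Genes near octamer sites were described separately because Oct-1 binds the octamer. Promoter windows from 250 bases before to 50 bases after the annotated start (RefSeq, GRCm38.p6) were searched for ATGCAAAT on both strands, so that a reverse match reads ATTTGCAT. Such a match was present in 570 of 32851 windows (1.74%), in 147 of 10075 matched tested genes (1.46%), in 32 of 2328 responsive genes (1.37%) and in 2 of 85 genes with a response of at least 2-fold. It was present in 0 of 115 responsive genes with an unadjusted p under 0.05 for the difference. The 2 genes of at least 2-fold were Eda2r and Stox2. The windows of Gadd45a, known for its octamer sites, and of Eda2r, a p53 target among the strong responders, are shown with the octamers in capitals. The first lies at chr6:67037358-67037657 and the second at chrX:97377160-97377459, both read from the minus strand.
Gadd45a: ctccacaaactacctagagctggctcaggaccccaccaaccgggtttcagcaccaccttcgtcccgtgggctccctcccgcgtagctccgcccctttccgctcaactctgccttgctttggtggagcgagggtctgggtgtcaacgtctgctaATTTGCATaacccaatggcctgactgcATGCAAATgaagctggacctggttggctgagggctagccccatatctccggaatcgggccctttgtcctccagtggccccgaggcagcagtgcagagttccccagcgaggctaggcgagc
Eda2r: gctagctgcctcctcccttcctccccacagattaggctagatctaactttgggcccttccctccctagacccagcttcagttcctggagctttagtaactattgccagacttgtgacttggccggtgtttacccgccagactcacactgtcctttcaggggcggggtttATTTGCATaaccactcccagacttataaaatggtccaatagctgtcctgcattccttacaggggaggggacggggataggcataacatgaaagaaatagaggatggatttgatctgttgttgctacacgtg

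The Gadd45a window holds 2 octamers, whose first bases lie 97 and 70 bases before the annotated start, and the Eda2r window 1, 81 bases before it. Gadd45a had 6.46, 6.73, 7.0 and 6.69 in irradiated mutant and 6.52, 6.59, 6.83 and 6.84 in unirradiated mutant MEFs, against 6.20, 6.46, 6.70 and 6.95 in irradiated wild type and 6.15, 6.45, 6.70 and 6.70 in unirradiated wild type MEFs. All 4 groups overlapped. Gadd45a did not pass for the average irradiation effect (0.051), and its difference was -0.056 (-0.38 to 0.27). Stox2 rose by 1.26 on average on array B, with a difference of 0.38 (-0.30 to 1.06).

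Of 15 genes in a list of POU factors, octamer coactivators and octamer-linked genes measured by the A arrays, 4 rose, 2 fell and 9 missed the threshold. Of all measured genes on that array, 1232 of 7827 rose and 866 fell. The median difference of the list was -0.080 with 11 of 15 negative, against 3941 of 7827 genes, and 1 of 15 reached an unadjusted p under 0.05, against 223 of 7827. Ahcy, the hydrolase of S-adenosylhomocysteine, stood far apart between the genotypes, 2.70 lower in the mutant with irradiation and 2.74 lower without. It rose by 0.29 in the mutant and 0.26 in wild type with irradiation, a difference of 0.036 (-0.15 to 0.22). Taldo1, the transaldolase of the pentose phosphate pathway, had -0.16 (-0.38 to 0.068).

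The differences were then set side by side between the runs of title numbers. Over responsive probe sets the first and second run correlated at r = 0.038 on array A (n = 3391) and r = 0.14 on array B (n = 594), against -0.021 and -0.029 over all probe sets. They had the same sign in 49.8% on array A and 53.7% on array B, against 48.3% and 45.9% of all probe sets. Probe sets share their samples and so are not independent replicates. Genes responsive on both array types were compared at the probe set with the highest mean on each, on the same RNA. Their differences correlated at r = 0.23 (n = 93) while their average effects correlated at r = 0.90. Some of these genes may have the same probe set on both, since 14 probe sets were present and responsive on both array types. The 100 probe sets present on both array types gave r = 0.42 for the difference and r = 0.82 for the average effect.

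**Figure D5:**
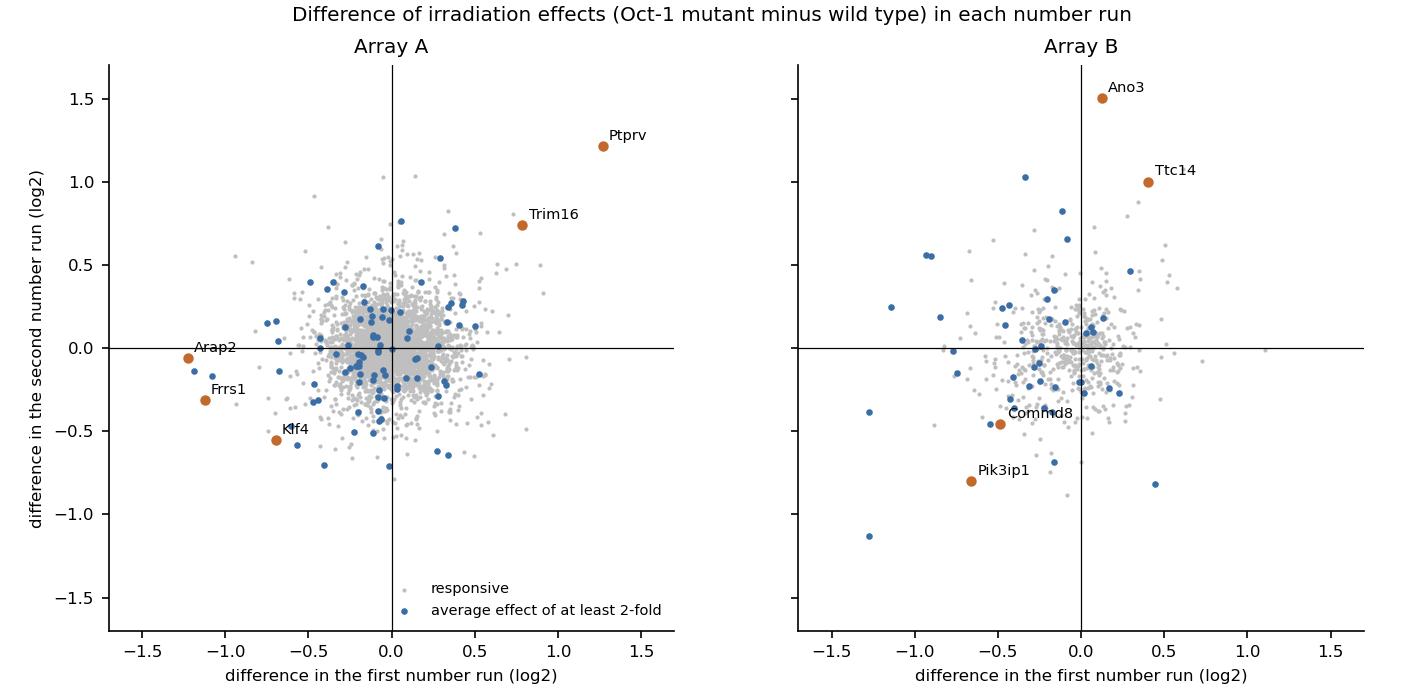
Difference of irradiation effects (Oct-1 mutant minus wild type, log2) in the second run of title numbers against the first, for responsive probe sets (grey), those with an average effect of at least 2-fold (blue) and named genes (orange), array A left and array B right. The runs correlate at r = 0.038 on array A and 0.14 on array B, Ptprv lies at 1.27 and 1.21, and Arap2, Frrs1 and Ano3 differ between the runs.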

How the data were processed

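The deposited files held log2 values per probe set for 32 samples, 16 on each array type. That the base is 2 was taken from the range of the values, and their making by the authors from the scans was not given in the sources used here. Replicate numbers came from the labels. Probe sets were named through the platform annotation, updated by gene ID (RefSeq), where it gives 1 gene (20393 on array A, 14674 on array B). Values were used as deposited. Per array type, probe sets were kept whose mean reached percentile 40 of all means, control probe sets left out. limma 3.58.1 in R 4.3.3 fitted the 4 groups with the run of title numbers as a block and a variance trend, with Benjamini-Hochberg adjustment over all probe sets kept per array type. Intervals are pointwise at 95%. The number of arrays limits the precision.

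A list gene is represented by its probe set with the highest mean. Genes were named by rule: the 10 strongest rises and falls on array A and 5 on array B, the 5 and 3 smallest interaction p-values per direction, the 5 and 3 most tightly bounded responses, up to 4 responsive members per list, and Gadd45a, Ahcy, Cdkn1a and Mdm2. The comparison, its gene lists and its rules were chosen with earlier results of these data known. Same-numbered samples deviated together from their group means (correlations of 0.32 to 0.72 for array A, 0.24 to 0.60 for array B), and after removing run means the median was -0.00067 and 0.037, so the numbers pair samples through the run. Alternatives were other blocks, each run alone, other filters and scalings, no variance trend, array weights and leaving out each sample.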

Additional observations from a re-analysis of the deposited data

How the results depend on the processing

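Over 27 alternative analyses per array type, the count of probe sets called for a different response stayed at 0 on array A. On array B it was 0 to 1 when a sample was left out, the 1 being Mapk8 without wild type irradiated replicate 2. The responsive count of 3391 on array A fell to 1745 with no block, 1717 in the first run alone and 1145 in the second, where fewer samples were fitted. On array B 594 became 289 with no block, 274 in the first run and 58 in the second. Responses bounded within 50% numbered 33 on array A and 7 on array B in the second run alone, against 58 and 19. With the replicate block, which follows the replicate numbers, 3418 and 622 probe sets were responsive and the count called for a different response was 0 on both. Of 23 named probe sets whose interval leaves out 0, 0 changed sign and 0 passed adjustment in any alternative. In this balanced design, other blocks, filters and no variance trend leave the estimated difference of a probe set unchanged. Many of these probe sets were chosen by the difference itself, and analyses with a sample left out share most samples. Their steady sign is a description and not independent support. List medians turned sign in at least 1 analysis for G1/S, antioxidant and immediate early genes on both arrays, for apoptosis, repair, interferon and fibroblast marker genes on array A, and for p53 target, G2/M, octamer-linked and Hox genes on array B. Of the named probe sets, 16 had a sample below the filter marks of 4.96 and 3.36, Ptprv, Trim16, Tap1, Arap2, 1700007K13Rik, Ano3 and Cenpa among them, and Kcnj15 had a mean level next to the mark of array B, which limits what they can show.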

Other observations

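In 56 groups of 4 values, from the genes given by sample, 0 samples passed Dixon's criterion at the 95% level, Mapk8 in wild type irradiated replicate 2 included. The summed level of the neural and glial markers on array A, where 4 of 10 passed the filter on low values, was 9.34 to 9.54 in irradiated mutant and 9.23 to 9.56 in unirradiated mutant samples, against 9.68 or more in irradiated wild type and 9.62 to 9.85 in unirradiated wild type samples. On array B, where 2 of 4 passed, it was 8.01 to 8.42 and 7.71 to 8.57 in the mutant groups, against 8.54 to 9.29 and 8.74 to 9.27 in the wild type groups. The difference of irradiation effects was -0.022 on array A and -0.013 on array B.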
